A study of Capra hircus with 40 samples.

Results

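The ovary of the Jining gray goat (Capra hircus) at 4 months after birth was compared with that at 2 months, by sequencing of small RNA. The 10 libraries of the comparison are 5 ovaries at month 2 and 5 at month 4, out of 40 libraries from ovary and uterus at day 1 and months 2, 4 and 6. Per the labels, all goats were females raised together on one farm. No treatment, genotype or puberty status is given, and the replicate numbers mark individuals. All 427 miRNA rows of the count table were taken, of which 317 passed the filter on low counts and were tested, 110 did not, and 20 of those had no read in any of the 10 libraries. Levels are given as CPM, counts scaled to a library's total of miRNA counts, and changes as log2 of month 4 over month 2 ± the standard error (SE). P-values are two-sided, from edgeR's quasi-likelihood test, and adjusted p-values are by Benjamini-Hochberg over all 317. They set each change against the spread between individuals of one farm, estimated over the 20 ovary libraries of all 4 ages.

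A miRNA is a short RNA cut from a hairpin precursor. It guides a silencing complex to messenger RNAs that match its seed, near its 5′ end, and lowers their stability or translation. Both arms of a hairpin, 5p and 3p, can yield a mature miRNA, and one usually dominates. In the ovary, miRNAs act in granulosa cells, theca, stroma, vessels and surface epithelium, and loss of the miRNA-processing enzyme Dicer in the female tract of mice leads to infertility. Between birth and puberty the mammalian ovary grows, and follicles are recruited in waves while most of them degenerate.

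The tissue label was checked with miR-202, which is highly enriched in the gonads. The level of miR-202-5p was 52.2, 145, 115, 65.2 and 134 CPM in month 2 libraries 1 to 5 and 64.3, 27.5, 49.8, 82.7 and 252 CPM in month 4 libraries 1 to 5. It was at most 0.954 CPM in the 10 uterus libraries of the same ages. The other arm, miR-202-3p, lay between 13.2 and 98.9 CPM in these ovaries and at or below 0.128 CPM in those uteri. All 10 ovaries thus carried the gonadal miRNA at both ages.

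Totals ran from 5719892 to 7387622 counts per library at month 2 and from 5889079 to 6897802 at month 4. The number of miRNAs with at least 1 count was 359.6 ± 7.30 (SD, n = 5) at month 2 and 356.4 ± 12.7 at month 4 (exact permutation test, p = 0.754). The 10 most abundant miRNAs took 58.9% ± 2.38 and 60.7% ± 4.90 of the counts (exact permutation test, p = 0.484). The totals gave p = 0.921 by the same exact permutation test, and all 3 measures had an adjusted p of 0.921. The smallest p that 5 libraries against 5 allow is 0.00794. Several libraries stand apart. Month 2 library 2 and month 4 libraries 1, 3 and 4 carried high levels of the miR-200 and miR-34/miR-449 families and are called miR-200-high below. Month 4 library 5 carried the highest miR-143-3p, miR-126-3p and miR-21-5p of the 10. Their values are given beside the results they touch.

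No miRNA passed an adjusted p of 0.05 in the fit of the 20 ovary libraries (percent called 0 of 317). The lowest adjusted p was 0.314, for miR-29b-3p. At an unadjusted p under 0.05 there were 31 miRNAs, 9.78% of those tested. Of these, 25 had the higher level at month 4 (7.89% of those tested) and 6 the lower (1.89%). DESeq2 called 1 miRNA (0.315%) and so did edgeR on the 10 libraries alone (0.342% of 292), both times miR-29b-3p. The month 2 and month 4 levels did not overlap for 2 miRNAs that were higher (0.631%) and 2 that were lower (0.631%): miR-29b-3p and miR-218 were higher in all 5 ovaries of month 4, and miR-148b-3p and miR-181b-5p lower. The earlier step of the same tissue, month 2 against day 1, had 182 calls of 317 (57.4%), and the later one, month 6 against month 4, had 0; each of these shares libraries with the comparison described here. The median log2 change over all 317 was 0.09 with trimmed mean of M values (TMM) scaling and -0.06 with library totals alone. The log2 change was positive for 178 and negative for 139 of the 317, and for 140 and 177 with library totals alone. Counts of positive rows in the lists below are to be read beside these. With totals alone, 11 miRNAs were higher and 6 lower at an unadjusted p under 0.05.

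**Figure D1:**
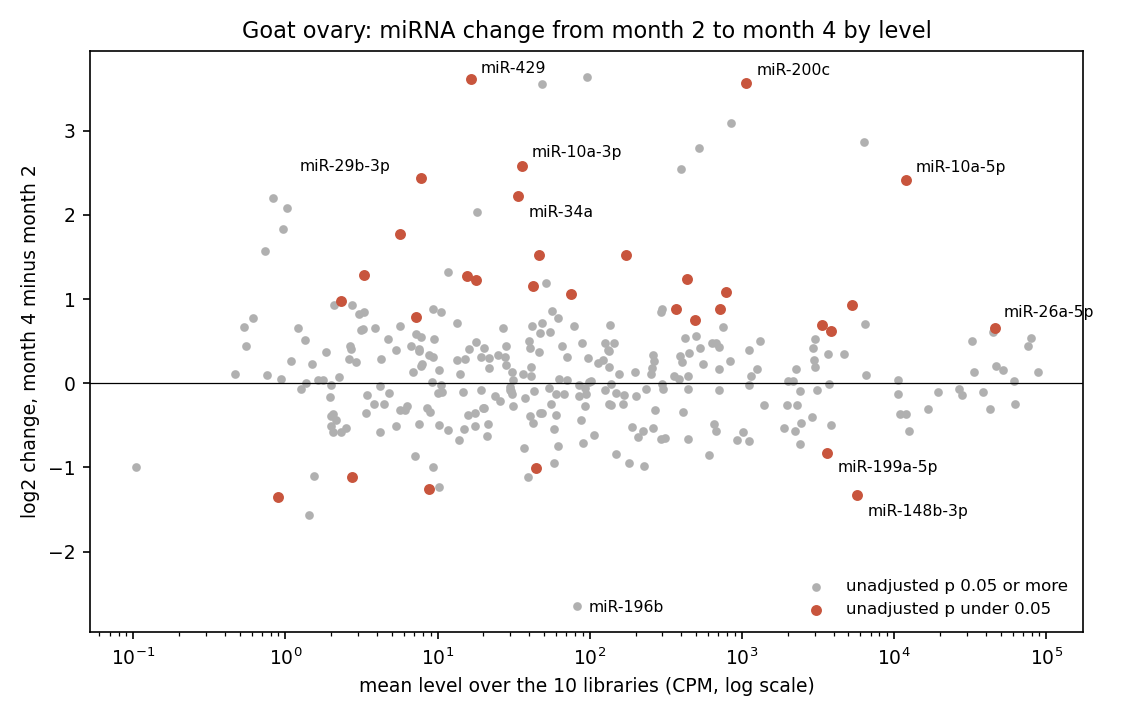
Log2 change from month 2 to month 4 (vertical axis) against the mean level over the 10 ovary libraries in CPM (horizontal log axis), with 1 point for each of 317 tested miRNAs. Red points have an unadjusted p under 0.05 (edgeR), 25 above 0 and 6 below it; none passed the adjusted threshold.

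The miR-29 family represses collagens and other matrix genes and DNA methyltransferases. Its member miR-29b-3p was measured at 1.02, 2.10, 1.76, 5.84 and 1.90 CPM in month 2 libraries 1 to 5 and at 15.3, 9.0, 15.9, 13.3 and 11.3 CPM in month 4 libraries 1 to 5. Every ovary of month 4 lay above every ovary of month 2. The means were 2.52 ± 1.90 and 13.0 ± 2.86 CPM (SD, n = 5), and the log2 change was 2.44 ± 0.63, with a 95% interval of 1.12 to 3.76 (adjusted p = 0.314). DESeq2 gave 2.49 with an adjusted p of 0.0267, and edgeR on the 10 libraries alone 2.58 with 0.0390. Leaving out each library in turn, edgeR gave log2 changes from 2.31 to 3.23 and adjusted p from 0.0465 to 0.625. The 3.23 and the 0.0465 came without month 2 library 4. That library was the highest of its group, so a larger change without it was fixed in advance. The level is low, so month 2 values rest on few reads.

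The other miR-29 rows lay on the same side. The abundant miR-29a-3p stood at 379, 277, 530, 914 and 502 CPM at month 2 and at 1152, 494, 930, 1285 and 659 CPM at month 4, a log2 change of 0.88 ± 0.40 (adjusted p = 0.443). Month 2 library 4 and month 4 library 2 make these groups overlap. For miR-29c-5p the levels were 5.95, 11.4, 12.3, 16.7 and 10.4 CPM against 18.7, 16.1, 32.3, 30.7 and 23.3 CPM (1.22 ± 0.45, adjusted p = 0.443). In CPM by library totals, month 4 library 2 fell just under month 2 library 4. Their TMM factors, 0.774 and 0.962, would turn that order. The minor arms gave 0.98 ± 0.44 for miR-29a-5p (adjusted p = 0.443) and 0.85 ± 0.54 for miR-29b-5p (adjusted p = 0.596). All 5 tested rows had a positive log2 change, 4 of them with an unadjusted p under 0.05, where 7.89% of all tested miRNAs had a higher level at that p. The median of the list was 0.98, beside 0.09 over all tested miRNAs. The row of miR-29c-3p held 0 CPM in all 10 libraries. How reads shared by members of a family were assigned is not given in the sources used here, so the split among miR-29 rows, and among those of other families below, is uncertain.

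Among miRNAs with the lower level at month 4, the lowest p belonged to miR-148b-3p, a member of the miR-148 family that represses the DNA methyltransferase DNMT1. It was measured at 10031, 5635, 10666, 8426 and 6774 CPM in month 2 libraries 1 to 5 and at 2317, 1412, 2471, 4319 and 5155 CPM in month 4 libraries 1 to 5. All 5 ovaries of month 4 lay below the lowest of month 2. The log2 change was -1.33 ± 0.40, with a 95% interval of -2.16 to -0.50 (adjusted p = 0.443), and it ran from -1.50 to -1.10 when each library was left out in turn. The related miR-148a-3p, several times as abundant, gave 0.13 ± 0.49 (adjusted p = 0.917). Of the 4 rows of the family, 3 were negative, 1 of them with an unadjusted p under 0.05 (1.89% of all tested miRNAs were lower at that p), and the median was -0.31.

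**Figure D2:**
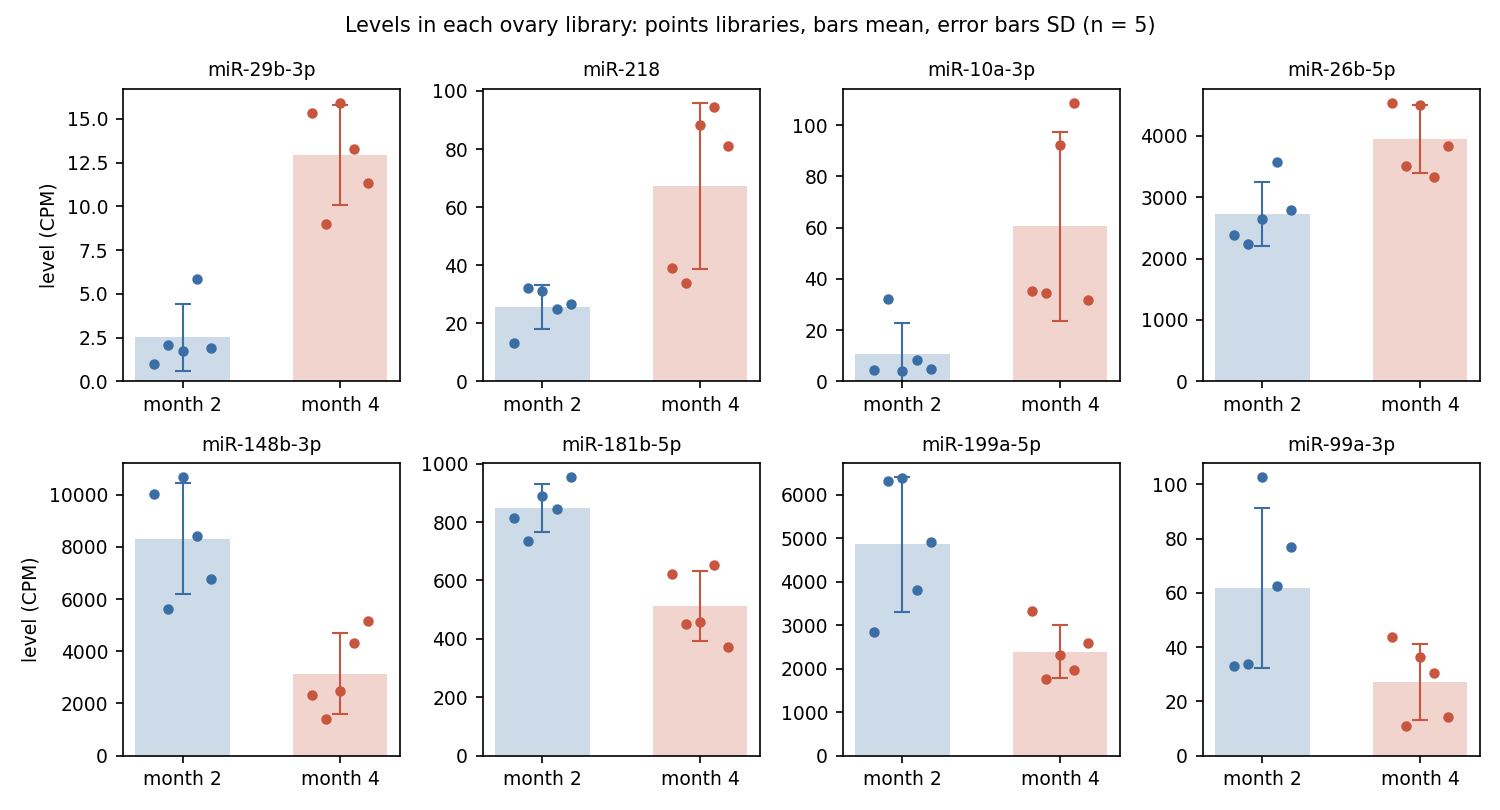
Levels in CPM (linear axes from 0) of 8 miRNAs at month 2 (blue) and month 4 (red); points are the 5 libraries of each age, bars the mean and error bars the SD. The groups do not overlap for miR-29b-3p, miR-218, miR-148b-3p and miR-181b-5p, and overlap for miR-10a-3p, miR-26b-5p, miR-199a-5p and miR-99a-3p.

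The miRNAs miR-10a and miR-196 lie within HOX gene clusters, which set position along the body axis. The level of miR-10a-5p was 1721, 10450, 1402, 5108 and 1320 CPM at month 2 and 8836, 15575, 32848, 29484 and 12342 CPM at month 4. Month 2 library 2 reached into the month 4 range, and the other 4 lay below it. The log2 change was 2.41 ± 0.88 (adjusted p = 0.443). Its partner arm miR-10a-3p went from 4.35, 32.2, 4.06, 8.47 and 4.83 CPM to 35.3, 34.6, 92.1, 109 and 31.6 CPM, with only month 2 library 2 inside the month 4 range (2.59 ± 0.84, adjusted p = 0.443). In the uterus of the same ages miR-10a-5p lay between 16558 and 50798 CPM. The 4 miR-200-high libraries are month 2 library 2 and month 4 libraries 1, 3 and 4. Without them the log2 change was 2.84 for the 5p arm and 2.89 for the 3p arm. That fit drops the highest library of month 2 for both arms, which raises the change, and the highest of month 4, which lowers it. It keeps only libraries 2 and 5 at month 4.

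The pattern of miR-196b ran across the ages. It was 71.8, 0.699, 71.5, 543 and 41.1 CPM at month 2 and 1.31, 84.9, 0.787, 1.76 and 2.75 CPM at month 4 (-2.65 ± 1.70, adjusted p = 0.597). The log2 change was -0.54 without month 2 library 4 and -6.46 without month 4 library 2. Month 2 library 2 was low like most of month 4, and month 4 library 2 was high like most of month 2. The paralog miR-196a had the same libraries at its top, with 156 CPM in month 2 library 4 and 101 CPM in month 4 library 2 (-0.77 ± 1.35, adjusted p = 0.857); its log2 change was 0.68 without month 2 library 4.

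The miR-200 and miR-34/miR-449 families were high in 1 library of month 2 and 3 of month 4. The miR-200 family holds cells in the epithelial state by repressing ZEB1 and ZEB2, and miR-34b, miR-34c and miR-449 act in the formation of motile cilia. The level of miR-200b was 217, 5991, 628, 197 and 489 CPM at month 2 and 4174, 154, 12752, 38355 and 159 CPM at month 4 (2.87 ± 1.62, adjusted p = 0.546). That of miR-34c-5p was 7.98, 733, 96.8, 4.09 and 7.77 CPM against 414, 2.89, 1182, 5967 and 3.77 CPM (3.09 ± 2.04, adjusted p = 0.615). The same libraries, month 2 library 2 and month 4 libraries 1, 3 and 4, were high for both, and month 4 libraries 2 and 5 were as low as the low ovaries of month 2. The miR-183-96-182 cluster, also epithelial, did not follow this in full. Its summed level was 67.2, 73.1, 82.2, 97.3 and 43.7 CPM at month 2 and 76.9, 57.2, 205, 357 and 21.3 CPM at month 4. Only month 4 libraries 3 and 4 were high for it. The summed miR-135 rows were 22.0 to 65.3 CPM in the miR-200-high libraries and at most 5.55 CPM in the others. In the uterus of the same ages miR-200b lay between 816 and 9504 CPM, so month 4 libraries 3 and 4 exceeded every uterus library.

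**Figure D3:**
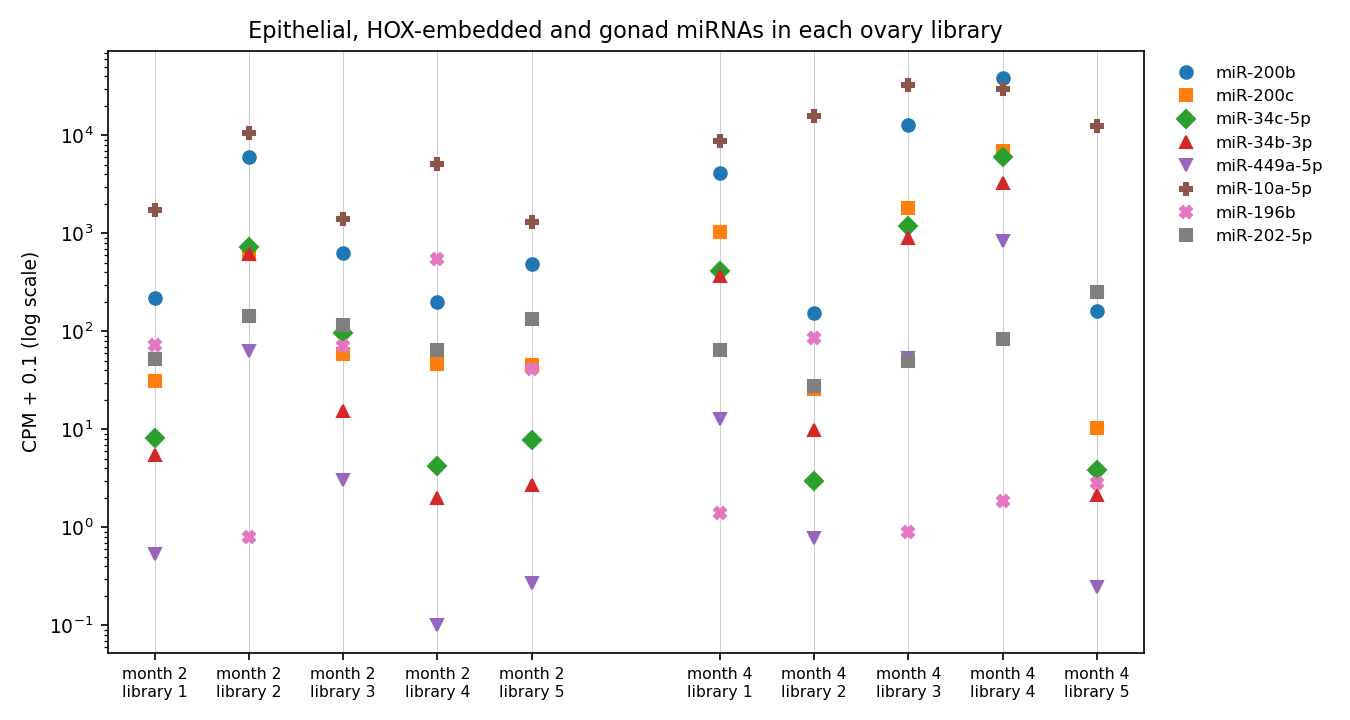
Levels in CPM (log axis, 0.1 added) of 8 miRNAs in each of the 10 ovary libraries, month 2 at left and month 4 at right. The miR-200, miR-34 and miR-449 symbols stand high in month 2 library 2 and month 4 libraries 1, 3 and 4, miR-196b is at or under 1.76 CPM in those 4, and miR-202-5p is above 27 CPM in all.

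All 5 rows of the miR-200 family had a positive log2 change, with a median of 2.87, and 2 of them had an unadjusted p under 0.05, where 7.89% of all tested miRNAs were higher at that p. These were miR-429 (3.62 ± 1.55, adjusted p = 0.443) and miR-200c (3.56 ± 1.69, adjusted p = 0.481). The 5 tested rows of the miR-34/miR-449 family had a median of 3.09, with 1 at that p, miR-34a. The medians were 0.37 and 0.10 without month 4 libraries 3 and 4. Without all 4 miR-200-high libraries they were -0.96 and -0.79. These libraries were picked by the levels of members of the 2 lists, so a fall of the medians without them was fixed by that choice and is no test. The summed level of the miR-200 family ran from 270 to 7034 CPM at month 2 and from 185 to 47549 CPM at month 4, and that of miR-34/miR-449 from 12.1 to 1461 and from 17.7 to 10598 CPM. In such whole-tissue RNA, more cells of a type and more of a miRNA per cell cannot be told apart. The labels do not say how the ovaries were dissected, and whether epithelium of neighbouring tissue was taken along with some of them was not tested. The part of these libraries in other differences was not tested beyond the fits without them, which called 0 miRNAs (16 and 39 at an unadjusted p under 0.05, without 2 and without 4 libraries).

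The level of miR-34a, a target of p53 that restrains the cell cycle, was 6.38, 14.7, 16.9, 5.84 and 17.6 CPM at month 2 and 18.2, 3.91, 33.4, 120 and 100 CPM at month 4. Month 4 library 2 was the lowest of all 10, and the other 4 ovaries of month 4 were above all of month 2. The log2 change was 2.22 ± 0.76 (adjusted p = 0.443), and it was 2.23 without the 4 miR-200-high libraries. That fit keeps only libraries 2 and 5 at month 4, at 3.91 and 100 CPM, so the rise in it rests on library 5. Month 4 library 5 had 100 CPM of miR-34a and 3.77 CPM of miR-34c-5p, so the high levels of the 2 miRNAs were not bound to the same ovaries.

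Further miRNAs with an unadjusted p under 0.05 and the higher mean at month 4 included both miR-26 rows of the 5p arm, which repress EZH2 and cyclin genes. The level of miR-26b-5p was 2390, 2241, 2642, 3578 and 2797 CPM at month 2 and 4534, 3512, 4505, 3334 and 3835 CPM at month 4. Only month 2 library 4 overlapped month 4, and the log2 change was 0.70 ± 0.25 (adjusted p = 0.443). The more abundant miR-26a-5p gave 37757, 30845, 34887, 51272 and 37532 CPM against 63478, 49158, 68581, 44815 and 44274 CPM (0.66 ± 0.28, adjusted p = 0.443), and again only month 2 library 4 overlapped. Both are small changes of high counts.

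The remaining miRNAs of that direction had values of the 2 ages that overlapped or lay close together. For miR-218, which lies in introns of the SLIT genes, levels were 13.3, 32.2, 31.3, 24.8 and 26.6 CPM against 39.1, 33.8, 88.2, 94.4 and 80.9 CPM with no overlap (1.53 ± 0.68, adjusted p = 0.443), but month 2 library 2 and month 4 library 2 were close. For miR-1468-5p, 2 ovaries of month 4 stood out, with 1356 CPM in library 2 and 1939 CPM in library 5 against 444 to 637 CPM at month 2 (1.08 ± 0.38, adjusted p = 0.443). The level of miR-145-3p ran from 237 to 378 CPM at month 2 and from 337 to 614 CPM at month 4 (0.89 ± 0.32, adjusted p = 0.443). That of miR-191-5p ran from 2131 to 4549 and from 2199 to 7086 CPM (0.62 ± 0.24, adjusted p = 0.443). Log2 changes of 1.28 ± 0.48 for miR-338-5p (adjusted p = 0.443) and 1.53 ± 0.65 for let-7b-3p (adjusted p = 0.443) complete the 12 miRNAs of at least 10 CPM with the lowest p in this direction, together with miR-126-5p. All 12 had an adjusted p of 0.443.

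In the other direction, 6 miRNAs had an unadjusted p under 0.05: miR-148b-3p, miR-181c-3p, miR-146b-3p, miR-99a-3p, miR-345-5p and miR-199a-5p. The stromal miR-199a-5p was measured at 2852, 6315, 6384, 3809 and 4916 CPM at month 2 and at 3322, 1756, 2310, 1958 and 2594 CPM at month 4 (-0.83 ± 0.37, adjusted p = 0.443). Only month 2 library 1 and month 4 library 1 made the groups overlap. Its cluster partner miR-214-3p gave -0.57 ± 0.31 (adjusted p = 0.535), with month 2 library 5 highest at 2210 CPM. The more abundant arm miR-199a-3p gave 0.03 ± 0.34 and miR-214-5p 0.05 ± 0.30, so of the 5 rows of this cluster 2 were positive and 3 negative, with a median of -0.48. For miR-99a-3p the levels were 33.2, 33.7, 103, 62.4 and 76.8 CPM against 43.6, 11, 36.2, 30.5 and 14.2 CPM (-1.0 ± 0.43, adjusted p = 0.443). The immune regulator miR-146b-3p, with a mean under 10 CPM, went from 16.1, 20.8, 12.3, 7.45 and 7.77 CPM to 8.60, 3.57, 5.04, 2.71 and 3.91 CPM (-1.25 ± 0.49, adjusted p = 0.443).

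Levels of miR-181b-5p were 814, 734, 889, 844 and 954 CPM at month 2 and 622, 450, 459, 654 and 374 CPM at month 4. The groups did not overlap, yet the log2 change of -0.57 ± 0.31 had an adjusted p of 0.541. The related miR-181c-3p gave -1.11 ± 0.42 (adjusted p = 0.443), miR-181c-5p -0.51 ± 0.43 (adjusted p = 0.665) and miR-181d -0.55 ± 0.34 (adjusted p = 0.589). The other miRNAs among the 12 lowest p-values in this direction did not reach an unadjusted p of 0.05. Their log2 changes were -0.56 for miR-330-5p, -0.95 for miR-130b-5p, -0.41 for miR-140-3p, -0.57 for miR-99b-3p, -0.98 for miR-15b-5p, -1.12 for miR-424-5p and -0.69 for miR-455-3p, with adjusted p between 0.535 and 0.587.

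Month 4 library 5 was far above the other 4 libraries of its age for both miR-126 arms, miR-143-3p and miR-21-5p. The endothelial miR-126-3p was 4046, 2977, 5383, 2655 and 4312 CPM at month 2 and 3296, 3200, 4338, 4042 and 19000 CPM at month 4. The 4 other ovaries of month 4 lay within the month 2 range (0.94 ± 0.41, adjusted p = 0.443), and miR-126-5p was alike, with 247 CPM in that library and 48.2 to 74.5 CPM in the other 4 (1.06 ± 0.42, adjusted p = 0.443). Without that library the median of both arms was 0.40 rather than 1.00. The same ovary had 181792 CPM of miR-143-3p, the dominant smooth muscle miRNA, against 51452 to 81395 CPM in the other 4. It also had 24943 CPM of miR-21-5p, an anti-apoptotic miRNA of granulosa cells, against 2258 to 5991 CPM. Its let-7a-5p was the lowest of the 10, at 46127 CPM. The stromal miR-199/miR-214 cluster was not high in that ovary, with a summed level of 13864 CPM against 17250 to 22706 CPM at month 2.

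The imprinted DLK1-DIO3 locus encodes a large set of miRNAs expressed from the maternal chromosome. Their summed level over 66 rows was 28068, 24436, 25756, 23510 and 30278 CPM in month 2 libraries 1 to 5 and 11353, 18111, 15807, 16943 and 55896 CPM in month 4 libraries 1 to 5. In CPM by library totals, month 4 libraries 1 to 4 lay below all of month 2, and library 5 lay above all of it. The TMM factors, 0.774 in month 4 library 2 and 0.962 to 1.35 at month 2, would put that library inside the month 2 range. Of 46 tested rows, 31 had a positive and 15 a negative log2 change, with a median of 0.15, and 2 had an unadjusted p under 0.05, where 9.78% of all tested miRNAs did. These were miR-495-3p (1.15 ± 0.53, adjusted p = 0.459), at 162 CPM in library 5 and 18.7 to 42.0 CPM in the other 4, and miR-345-5p, listed with this locus (-1.36 ± 0.60, adjusted p = 0.443), at a mean of 0.887 CPM. Without month 4 library 5, 12 rows were positive and 34 negative, with a median of -0.40. With library totals in place of TMM scaling, and all 10 libraries, 23 were positive and 23 negative. Without the 4 miR-200-high libraries, which leaves libraries 2 and 5 at month 4, 40 were positive, with a median of 0.65. Over all 317 tested miRNAs, 177 were positive in that fit, with a median of 0.13.

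**Figure D4:**
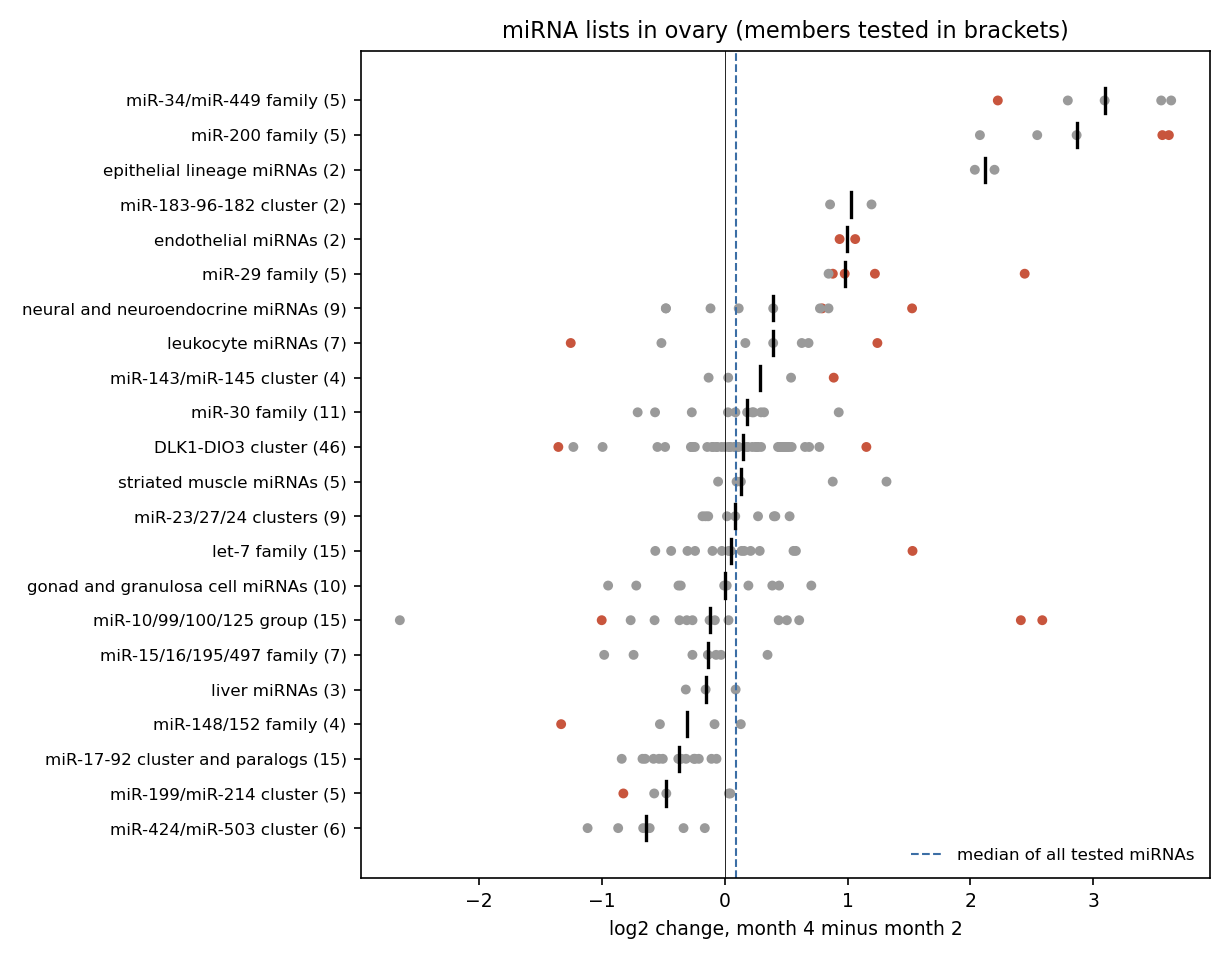
Log2 change from month 2 to month 4 (horizontal axis) for the tested members of 22 miRNA lists, with 1 point per miRNA, red where the unadjusted p is under 0.05 (edgeR); black bars are list medians and the dashed line is the median of all 317 tested, 0.09. The miR-34/miR-449 and miR-200 medians, 3.09 and 2.87, stand farthest to the right, and the miR-424/miR-503 median, -0.64, farthest to the left.

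The miR-17-92 cluster and its paralogs act downstream of MYC and E2F and promote proliferation. All 15 tested rows were negative, with a median of -0.37 and a range of -0.84 to -0.07, and none had an unadjusted p under 0.05, where 1.89% of all tested miRNAs were lower at that p. Without month 4 library 5, 3 rows were positive and the median was -0.24. Positive rows numbered 2 without month 4 libraries 3 and 4, and 3 without the 4 miR-200-high libraries, with medians of -0.48 and -0.74. Neighbouring rows of 1 precursor share its transcription and are not independent. Levels of miR-17-5p were 64.4, 68.9, 392, 89.4 and 377 CPM at month 2 and 131, 14.6, 53.2, 224 and 77.7 CPM at month 4 (-0.84 ± 0.63, adjusted p = 0.640). Month 2 libraries 3 and 5 were high, and month 4 library 2 was the lowest. Those 3 libraries held the same places for miR-20a-5p and miR-93-5p. The most abundant row of the group, miR-92a-3p, gave -0.07 ± 0.43, and its sign turned when certain single libraries were left out.

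The miR-424/miR-503 cluster is X-linked and acts on cyclins. All 6 rows were negative, with a median of -0.64, none with an unadjusted p under 0.05. All 6 were negative too in the fits without month 4 libraries 3 and 4 and without the 4 miR-200-high libraries. Levels of miR-424-3p were 615, 562, 585, 411 and 649 CPM at month 2 and 478, 220, 216, 405 and 291 CPM at month 4 (-0.66 ± 0.48, adjusted p = 0.640). Only month 4 library 1 lay inside the month 2 range.

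The miR-30 family, with 8 of 11 tested rows positive (median 0.18), and the miR-23/27/24 clusters, with 6 of 9 (0.09), had no row at an unadjusted p under 0.05. With library totals alone the positive rows were 4 of 11 and 4 of 9, and both medians were -0.01. Nor did the miR-15/16 family, with 6 of 7 rows negative (median -0.14), or the liver miRNAs, with 2 of 3 negative (-0.16).

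In the list of gonad and granulosa cell miRNAs, of 10 tested rows, 5 were positive and 5 negative, with a median of 0.01 and none with an unadjusted p under 0.05. The median was -0.17 with library totals alone, -0.23 without month 4 library 5 and 0.28 without month 4 libraries 3 and 4. The log2 change of miR-202-5p was 0.02 ± 0.90, with a 95% interval of -1.87 to 1.90, so a difference of several fold either way is within the error. Its sign turned with library totals alone (-0.10). Follicle-linked miR-383 gave -0.95 ± 0.66 (adjusted p = 0.640). Of 7 tested leukocyte miRNAs, 5 were positive with a median of 0.39; without month 4 library 5 these were 4 and 0.03. They include miR-146b-3p, lower at month 4 as given above, and the lymphocyte miRNA miR-150. The latter was at 33.1, 576, 216, 346 and 254 CPM against 403, 863, 482, 982 and 208 CPM (1.24 ± 0.54, adjusted p = 0.443). Among neural miRNAs 6 of 9 tested rows were positive (median 0.39), 2 of them with an unadjusted p under 0.05 (7.89% of all tested miRNAs were higher at that p). Among striated muscle miRNAs 4 of 5 were positive (0.13), beside 178 of 317 over all tested miRNAs. With library totals alone 2 of 5 striated muscle rows were positive, and without the 4 miR-200-high libraries 4 of 9 neural rows (median -0.01). Of the red blood cell miRNAs, 1 of 4 rows was tested, and their summed level was 11.9 to 33.9 CPM at month 2 and 12.4 to 62.3 CPM at month 4.

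Of the 10 most abundant miRNAs, 9 had a 95% interval of the log2 change that included 0; the other was miR-26a-5p (0.66, 0.08 to 1.24), described above. The let-7 family, which represses growth genes and accumulates as tissues mature, had 15 tested rows with a median of 0.05 (-0.15 with library totals alone). Levels of let-7a-5p, the most abundant, were 109789, 110250, 73613, 75431 and 78205 CPM at month 2 and 102685, 104892, 77245, 102268 and 46127 CPM at month 4, a log2 change of 0.14 ± 0.50 with a 95% interval of -0.91 to 1.19. For let-7b-5p it was 0.16 (interval -1.0 to 1.32) and for let-7c-5p -0.24 (-1.52 to 1.03). The signs of let-7a-5p, let-7b-5p and miR-10b-5p turned with library totals alone. For miR-10b-5p the log2 change was 0.03 (interval -0.70 to 0.76), for let-7f-5p 0.21 (-0.46 to 0.88), for let-7i-5p -0.30 (-0.90 to 0.29) and for miR-99a-5p 0.44 (-0.27 to 1.15). Those of miR-125b-5p (0.61, -0.26 to 1.48) and miR-143-3p (0.54, -0.82 to 1.90) also included 0.

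The 2 arms of a hairpin did not always have log2 changes of the same sign. For 56 hairpins with both arms tested and at least 10 CPM each, 33 had the same sign and 23 opposite signs, and the median absolute difference of the log2 changes was 0.32. The largest was that of miR-99a, with 0.44 for the 5p and -1.0 for the 3p arm. In let-7b the values were 0.16 and 1.53, in miR-148b -0.08 and -1.33, in miR-145 -0.13 and 0.89, and in miR-193b 0.85 and -0.10. In miR-148b the arm with the difference is the abundant one, while in miR-99a, let-7b and miR-145 it is the minor arm. The difference between arms was not tested, and many of the changes are small beside their error, so opposite signs alone show no difference.

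Ovaries of month 4 were more unlike each other than those of month 2. Spearman's rho between libraries, over miRNAs with a mean of at least 10 CPM, was 0.918 to 0.983 within month 2 (median 0.960, 10 pairs), 0.804 to 0.974 within month 4 (median 0.893), and had a median of 0.913 between the ages; libraries share their scaling to a total, and the values are a description. Of 233 tested miRNAs with at least 10 CPM, 186 had the larger SD of log2(CPM + 0.5) at month 4 and 47 at month 2, with median SDs of 0.683 and 0.432. Leaving out 1 library of month 4 left 158 to 185. The widest spreads at month 4 belonged to miR-34c-5p (SD 4.88), miR-34b-3p (4.40), miR-449a-5p (4.21), miR-200c (4.05) and miR-34c-3p (4.02). At month 2 they belonged to miR-34b-3p (3.26), miR-196b (3.21), miR-34c-5p (3.09), miR-449a-5p (2.86) and miR-767 (2.32), the last through month 2 library 3 at 188 CPM. A log2 change beyond 1 either way was estimated for 27 of the 233, of which 22 were higher and 5 lower. The 95% interval had a median half-width of 0.862, and it lay within 1 log2 unit of 0 for 76.

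Other ages of the ovary are given side by side, since each step shares libraries with this one. For miR-29b-3p the mean was 11.7 ± 5.77 CPM at day 1 and 20.4 ± 13.4 CPM at month 6 (SD, n = 5), so month 2 held the lowest mean of the 4 ages. Between day 1 and month 2 its log2 change was -2.84 ± 0.64 (adjusted p = 0.00101). For miR-148b-3p the means were 3957 ± 2085 CPM at day 1 and 2314 ± 641 CPM at month 6, so month 2 held the highest mean. The level of miR-10a-5p spread widely at day 1 (2663 to 15379 CPM) and month 6 (1133 to 28115 CPM), across nearly the whole range of months 2 and 4.

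**Figure D5:**
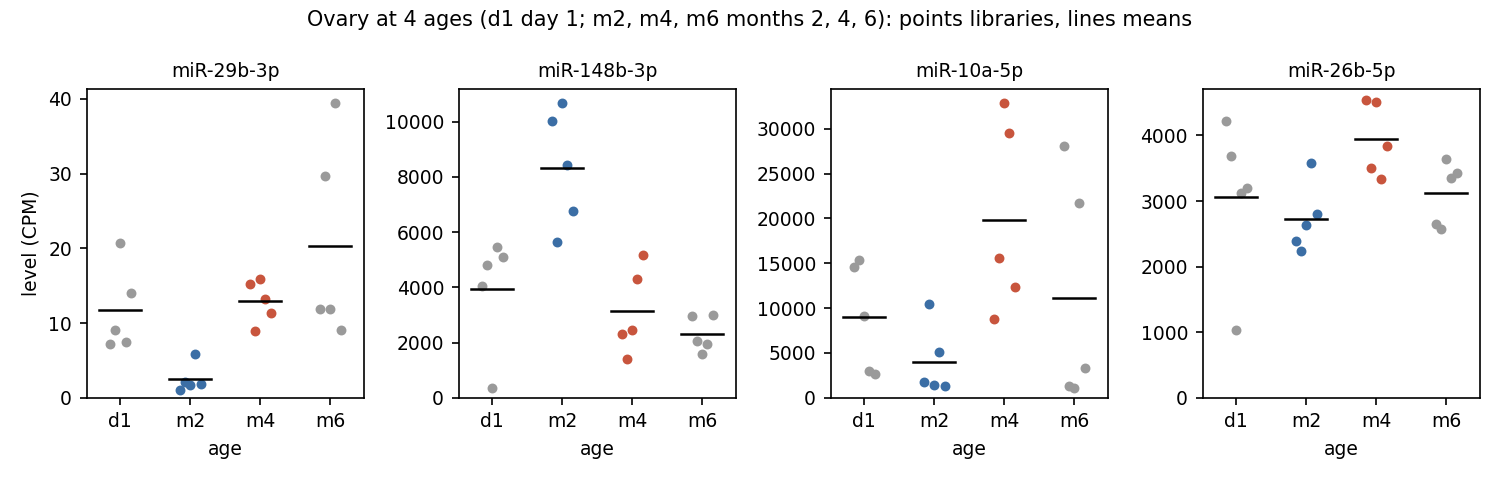
Levels in CPM (linear axes) of 4 miRNAs in the ovary at day 1 (d1) and months 2, 4 and 6 (m2, m4, m6), with 1 point per library and the mean as a line. Month 2 (blue) has the lowest mean of miR-29b-3p and the highest of miR-148b-3p; month 4 (red) has the highest mean of miR-10a-5p and miR-26b-5p.

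The same step in the uterus was set against that in the ovary with an interaction term over all 40 libraries. All were treated as independent, although ovaries and uteri with equal numbers may come from the same goats, which the labels leave unstated. Of 350 miRNAs, 0 passed an adjusted p of 0.05, and 57 had an unadjusted p under 0.05 (16.3%), 43 with a positive and 14 with a negative difference. With the size factors of DESeq2 in place of TMM scaling these were 19 and 28, and the median difference over all 350 was -0.11 in place of 0.26. The lowest adjusted p, 0.149, was shared by miR-195-3p, miR-99b-3p, miR-148b-3p and miR-423-3p. The change of miR-148b-3p in a fit of the uterus alone was -0.19 ± 0.25, with levels between 1183 and 2470 CPM at both ages, and the difference of the changes in the joint fit, uterus minus ovary, was 1.47 ± 0.43 (adjusted p = 0.149). For miR-10a-5p the difference was -2.42 ± 1.03 (adjusted p = 0.237), for miR-10a-3p -2.38 ± 0.98 (adjusted p = 0.228) and for miR-29b-3p -1.60 ± 1.12 (adjusted p = 0.463). No change was thus shown to differ between the organs by this test.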

How the data were processed

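Per the labels' protocols, total RNA was extracted with TRIzol and made into Illumina miRNA libraries. The deposited values are raw counts per mature miRNA and library; all are whole numbers and the authors applied no normalization to them as far as the values show. The submitters' processing notes name cutadapt 1.16, Bowtie 1.0.1 and RSEM 1.3.0; their roles, the build and annotation used, and the treatment of reads shared by paralogs are not given in the sources used here. Names are printed without the goat prefix. All pairs of libraries of a group differed by more than sampling noise.

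Counts were fitted in R 4.3.3 with edgeR 4.0.16 (quasi-likelihood test, filterByExpr, TMM scaling) over the 20 ovary libraries with age as the factor, and over all 40 for the tissue difference. SE was taken from the log2 change and the test's F statistic, as |log2 change| / sqrt(F). DESeq2 1.42.0 was an alternative. The common biological coefficient of variation was 0.624. CPM uses the library total. Alternatives were other scaling, filters, test, samples, replicate block and leaving out each library. Further fits, without the libraries richest in miR-34c-5p, were chosen after seeing the data.

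The comparison, its members and the 23 lists were chosen with earlier results of these data known. Named are the 10 most abundant miRNAs, the 12 lowest p-values in each direction at 10 CPM or more, any miRNA called by a tool, the 5 widest spreads at each age, the 5 hairpins with the largest arm difference, and list members as examples, which were chosen after their values were seen. The miR-181c and miR-181d rows are given in addition. Sequences were not used here.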

Additional observations from a re-analysis of the deposited data

Results flagged for a closer look

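Each value here is a library of 5 whose gap to the nearest of the others exceeded 0.71 of the group's range. For normally distributed values chance flags about 1 in 20 groups. The rule was applied to CPM without a log, so that rate may not hold here. Of 140 groups 32 were flagged, but the miRNAs named include the widest spreads at each age and share libraries, so this count is not to be held against that share. At month 2, library 2 was flagged 10 times as the highest: miR-10a-3p 32.2 CPM, miR-34b-3p 612, miR-34c-5p 733, miR-34c-3p 34.1, miR-449a-5p 62.2, miR-200a 411, miR-200b 5991, miR-200c 623, miR-429 7.34 and miR-193b-5p 16.3. Library 4 was the highest for miR-29b-3p (5.84 CPM), miR-196a (156) and miR-196b (543). Library 5 was the highest for miR-214-3p (2210 CPM) and miR-495-3p (42.8), and library 3 for miR-767 (188).

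At month 4, library 4 was the highest for miR-34b-3p (3288 CPM), miR-34c-5p (5967), miR-34c-3p (336), miR-449a-5p (830), miR-200c (6968) and miR-767 (70.9). Library 5 was the highest for miR-143-3p (181792 CPM), miR-126-3p (19000), miR-126-5p (247), miR-21-5p (24943), miR-202-5p (252) and miR-495-3p (162). Library 2 was the highest for miR-196a (101 CPM) and miR-196b (84.9) and the lowest for miR-140-3p (1481 CPM) and for the number of miRNAs detected, 334 against 360 to 365 in the other 4.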

How the results depend on the processing

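The count of called miRNAs was 0 in the reported fit and 1, miR-29b-3p, with DESeq2 and with the 10 libraries alone; leaving out each library gave 0 to 1, the 1 being without month 2 library 4. Its log2 change was then 2.49, 2.58 and 3.23. At an unadjusted p under 0.05 there were 31 miRNAs, 17 with library totals alone and 16 without month 4 libraries 3 and 4. The tissue difference had 0 calls under every alternative run. Of 67 named miRNAs, 48 kept their sign under every alternative and 19 did not. With library totals alone the log2 change was -0.046 for let-7a-5p, -0.17 for miR-10b-5p, -0.033 for let-7b-5p and -0.10 for miR-202-5p. Without month 4 libraries 3 and 4 it was 0.022 for let-7c-5p, -0.15 for miR-34c-5p, -1.42 for miR-449a-5p, 0.010 for miR-148b-5p, 0.13 for miR-196a and 0.20 for miR-92a-3p. Without those and month 2 library 2 and month 4 library 1 it was -2.82 for miR-34c-5p, -0.79 for miR-449a-5p, -0.92 for miR-200c, -1.01 for miR-34c-3p, -1.21 for miR-200a, -0.96 for miR-200b, -0.14 for miR-429, 0.075 for miR-148b-5p, 0.21 for miR-196a and 0.071 for miR-92a-3p; the cause was not tested.

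Leaving out each library in turn moved the log2 change across 0 for let-7a-5p (-0.057 to 0.40), let-7b-5p (-0.18 to 0.47), let-7c-5p (-0.65 to 0.10), miR-10b-5p (-0.028 to 0.37), miR-767 (-0.72 to 0.96), miR-148b-5p (-0.20 to 0.067), miR-145-5p (-0.23 to 0.18), miR-193b-3p (-0.15 to 0.044), miR-196a (-3.69 to 0.68), miR-202-5p (-0.66 to 0.33), miR-92a-3p (-0.34 to 0.25) and miR-21-5p (-0.33 to 1.02). The difference in total count ran from -277575 to 139358 and that in miRNAs detected from -5.35 to 2.40.

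With the replicate number as a block there were 0 calls and 29 miRNAs at an unadjusted p under 0.05, against 31 without it, and the log2 change became 0.60 for miR-767 and -0.20 for miR-202-5p. Deviations of same-numbered libraries correlated at -0.11, -0.29, 0.02, -0.46 and 0.47, and only number 5 correlated best with its own, so the numbers are not taken to pair the libraries. Depth limits miRNAs near 1 CPM, where a library holds few reads.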
